A study of Mus musculus with 56 samples.

Results

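The genes described here carry bile acids, sterols, phospholipid and organic anions across the hepatocyte membrane. They were chosen by name, with earlier results of these data known, and make up 10 of 25415 genes listed in the deposited gene table. Of them, 5 are carriers of the blood-facing membrane (Slc10a1, Slco1b2, Slco1a1, Slco1a4 and Slco2b1) and 5 are exporters of the bile canaliculus (Abcb11, Abcb4, Abcc2, Abcg5 and Abcg8). The livers came from 56 female C57BL/6J mice, aged 9 weeks, which had been fed for 7 days only in the daytime (daytime-restricted feeding, DRF) or only at night (nighttime-restricted feeding, NRF, the reference regimen). All animals were wild type, received no agent, and were kept under 12 h of light and 12 h of dark. Sampling covered zeitgeber times (ZT, counted in hours from lights on) 0, 4, 8, 12, 16, 20 and 24. There were 4 animals at each time under each regimen, which makes 14 groups. ZT24 falls at the same clock position as ZT0, 1 cycle later. The labels give neither the hours at which food was given nor a sequencing batch.

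The hepatocyte takes bile acids up from portal blood, adds newly made ones, and secretes both into the canaliculus, so that the pool returns to the intestine. Uptake of conjugated bile acids runs mainly through the sodium-dependent carrier NTCP (Slc10a1), and of unconjugated bile acids and other organic anions through the sodium-independent OATP carriers (Slco genes). On the canalicular side, the bile salt export pump BSEP (Abcb11) secretes bile acids, MDR2 (Abcb4) moves phosphatidylcholine into bile, MRP2 (Abcc2) secretes conjugates such as bilirubin glucuronides, and ABCG5 and ABCG8 act together as 1 heterodimer that secretes cholesterol and plant sterols. Hepatic bile acid handling is known to follow feeding, since each meal returns bile acids to the liver.

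Values are given as scaled counts. A scaled count was rebuilt from each deposited value, is linear in the abundance of the gene, and sums to between 813209 and 1017040 over all rebuilt genes of a library. Levels of different genes are compared only per kilobase of exon. Fold differences on the log2 scale are of the scaled count plus 1, and a result is called where its p-value, from limma fits over 13606 genes with Benjamini-Hochberg adjustment, was under 0.05 after adjustment. All 10 transporters passed the filter on low values, a mean scaled count of 1. Hepatocyte markers dominated every library, with 6 of 7 listed markers rebuilt and a summed level of 91803 to 148400 scaled counts, against 27.99 to 73.4 for 7 cholangiocyte markers and 490.4 to 1171 for 5 Kupffer cell markers. Of 3 erythroid markers, all 3 had a higher daily mean under DRF, with a summed level of 374 to 1324 (median 673) under DRF and 299 to 822 (median 484) under NRF, and their part in the results was not tested. In whole liver, fewer cells of a type and less RNA per cell cannot be told apart. One library, NRF ZT16 replicate 3, stood apart, with a mean correlation of 0.966 with the other 3 livers of its group, the lowest of all 56 libraries, and with the highest summed hepatocyte markers. Calls of named transporters that changed without it are given so beside them. Counts of transporters that changed without it are given without naming the genes.

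Per kilobase, Slco1b2 was the most abundant of the 10, at 483 ± 87.1 (SD, n = 28 livers) under DRF and 435 ± 107 under NRF. Slc10a1 came next, at 346 ± 70.8 and 301 ± 47.7, and then Abcb11, at 120 ± 37.1 and 123 ± 28.2. Each of the first 3 stood above the gene below it in at least 26 of 28 livers of each regimen, although Slco1b2 and Slc10a1 were closer than the sum of their SDs. Abcc2, Abcg5, Abcb4, Slco1a4 and Slco2b1 followed between 28.1 and 54.9 per kilobase. Neighbours among them were closer than the sum of their SDs under both regimens. Under DRF, Slco2b1 stood above the next gene, Abcg8, in all 28 livers and by more than that sum. Abcg8 lay at 12.999 ± 4.29 under DRF and 12.3 ± 8.08 under NRF. Slco1a1 was the lowest under DRF, at 4.06 ± 2.71, while under NRF it lay at 14.5 ± 8.04 and above Abcg8 in 17 of 28 livers, so those neighbours were not separated there.

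Promoter sequence is given for Abcb11 and for Abcg5 with its partner Abcg8, since Abcb11 and Abcg5 were the exporters with the least alike profiles over the 14 groups. The window from 250 bases before to 50 bases after the start was taken from RefSeq (GRCm38.p6) for all 10 genes, 14 windows in all. Abcg5 (chromosome 17, 84658234 to 84683011, minus strand) and Abcg8 (chromosome 17, 84676302 to 84700333, plus strand) are divergent neighbours, and their RefSeq starts at 84683011 and 84683121 leave 109 bases between them, shown on the plus strand. In this stretch no letters are in capitals, since none of the motifs searched was in it. For Abcb11 (chromosome 2, 69238282 to 69342616, minus strand) the 250 bases before the start are shown on the strand of the gene, with capitals marking the hexamer AGGTCA that nuclear receptors recognise, found here as its complement 56 to 51 bases before the start.
Abcg5 and Abcg8, between the starts, chr17:84683012-84683120: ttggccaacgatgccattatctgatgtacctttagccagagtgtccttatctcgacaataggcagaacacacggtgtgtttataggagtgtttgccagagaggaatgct
Abcb11, before the start, chr2:69342617-69342866: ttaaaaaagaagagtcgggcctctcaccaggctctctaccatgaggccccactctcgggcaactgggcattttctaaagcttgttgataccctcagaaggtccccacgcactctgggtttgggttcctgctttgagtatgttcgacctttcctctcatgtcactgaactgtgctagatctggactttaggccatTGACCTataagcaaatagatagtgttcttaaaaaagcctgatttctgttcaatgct

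On both strands, AGGTCA was found in 5 of the 14 windows, 1 each of Abcb11, Abcc2, Slc10a1, Slco1a1 and Slco1b2, and 16.3% of 32851 windows of all genes hold it. The E-box CACGTG, held by 7.15% of all windows, was found in none of the 14. The D-box forms TTATGTAA (0.938% of all windows) and TTACGTAA (0.119%), the inverted repeat of AGGTCA with 1 base between (0.00913%) and its direct repeat with 4 bases between (0.0152%), both of which overlap matches of the hexamer itself, were also in none. A match describes exact letters only, and no binding was measured. Near matches were not counted, such as aggccatTGACCT before the Abcb11 start, which differs from the inverted repeat by 1 letter.

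The first question is whether the transporters kept a 24-h rhythm under each regimen. A rhythm was called for 9 of the 10 under DRF, where 54.4% of all genes tested were called, and for 8 under NRF, where 60.8% were called. Of the 10, 8 were rhythmic under both regimens, against 38.3% of all genes. Slco1a1 had no called rhythm in either regimen (adjusted p = 0.751 and 0.584), and Slco2b1 was called under DRF only (adjusted p = 0.000145 and 0.132). The rhythms themselves differed between the regimens for 9 of the 10, all but Slco1a1, against 56.9% of all genes.

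For 7 of the 8 that were rhythmic under both, the fitted peaks lay at least 8 h apart, against 50.8% of the 5208 genes rhythmic under both, and for none of the 8 were they at most 4 h apart, against 24.1% of those genes. That count depended on the scale. On the values as deposited, 2 of the 9 then rhythmic under both, Abcg5 and Abcg8, had peaks at least 8 h apart (38.4% of all genes then rhythmic under both). The distances of Slc10a1, Slco1b2, Abcb4 and Abcc2 were then 5.81, 4.56, 7.82 and 6.35 h. That of Abcb11 was also under 8 h there, and its lowest value over all alternatives was 7.64 h. Without NRF ZT16 replicate 3 the count was 6 of 8. Under the other alternatives it ranged from 5 of 7 (without replicate 4, or without the ZT0 libraries) to 7 of 7 (without replicate 3). The median distance of the 8 was 9.31 h, against 8.13 h over those 5208 genes. The exception, Slco1a4, peaked at ZT20.9 ± 1.14 (SE) under DRF and ZT14.2 ± 0.625 under NRF, 6.64 ± 1.30 h apart. Amplitudes, measured from the mean to the peak, had a median of 0.29 on the log2 scale under DRF and 0.33 under NRF over the 10, against 0.16 and 0.18 over all genes tested.

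**Figure D1:**
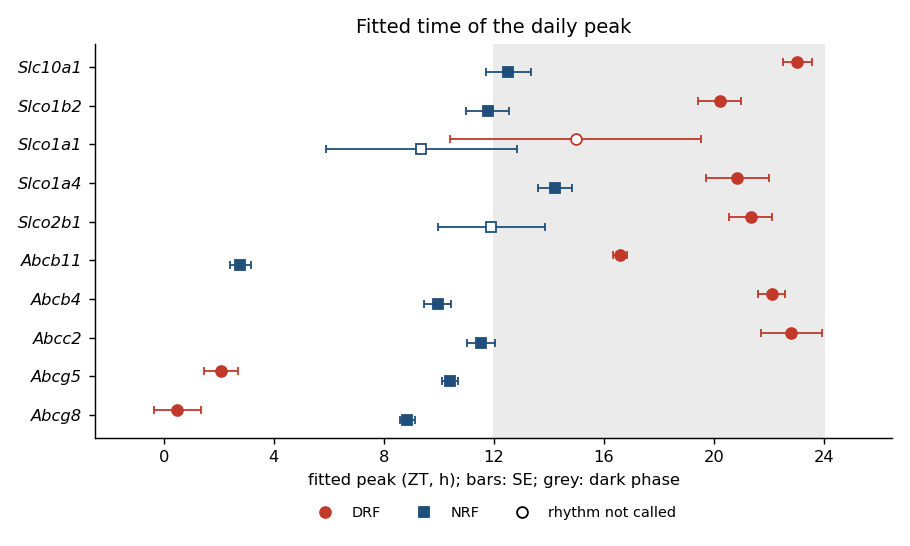
Fitted peak of the 24-h rhythm of each transporter (x axis, ZT in hours; bars are SE) under DRF (red circles) and NRF (blue squares), with open symbols where no rhythm was called and the dark phase in grey. Leaving aside Slco1a1, which had no called rhythm, and Abcb11, at ZT16.6 and ZT2.78, the peaks lie from ZT20.2 over the turn of the cycle to ZT2.08 under DRF and from ZT8.86 to ZT14.2 under NRF.

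Slc10a1 (chromosome 12, 80953183 to 80968705, minus strand), the sodium-dependent bile acid carrier, was high at the dark-to-light transition under DRF and in the middle of the cycle under NRF. Under DRF the 4 livers at ZT12 had 576, 556, 653 and 540.0 scaled counts, and those at ZT24 had 818, 974, 1148 and 981. Every liver at ZT24 was above every liver at ZT12, and the mean was 1.69-fold higher. Under NRF the livers at ZT0 had 488, 555, 564 and 585 and those at ZT8 had 751, 802, 769 and 709, again without overlap, with a mean 1.38-fold higher at ZT8. The fitted peak was at ZT23.0 ± 0.522 under DRF and ZT12.5 ± 0.810 under NRF, 10.5 ± 0.964 h apart (adjusted p for the difference in rhythm 7.97e-11). At equal ZT, Slc10a1 was higher under DRF at ZT0, ZT4, ZT20 and ZT24, by 0.35 to 0.69 on the log2 scale, and lower at ZT8 and ZT12, by -0.36 and -0.34. The groups overlapped at ZT12 and ZT20. The ZT8 call was lost without replicate 1 or 2 (adjusted p of 0.0563 and 0.295), the ZT12 call without 1, 2 or 4 (0.0566, 0.160 and 0.209), the ZT20 call without 2 or 3 (0.0766 and 0.150) and the ZT4 call without 4 (0.0923). On the values as deposited the calls at ZT8, ZT12 and ZT20 were lost (0.131, 0.552 and 0.0904).

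Slco1b2 (chromosome 6, 141629518 to 141686646, plus strand), which encodes the liver-specific OATP1B2, also peaked late in the cycle under DRF and near its middle under NRF. Under DRF its livers at ZT8 had 1723, 1756, 1905 and 1667 scaled counts and those at ZT24 had 3140.4, 2636, 3306 and 3294, with no overlap and a ratio of the means of 1.76. Under NRF the lowest mean was 1632 ± 219 at ZT0 and the highest 2979 ± 504 at ZT12, a ratio of 1.83 without overlap. The peaks at ZT20.2 ± 0.791 and ZT11.8 ± 0.794 lay 8.44 ± 1.12 h apart (adjusted p = 1.27e-06). At equal ZT it was higher under DRF at ZT0, ZT20 and ZT24, by 0.52 to 0.58 on the log2 scale, and lower at ZT8 and ZT12, by -0.36 and -0.37, calls that were lost without replicate 1, 2 or 4 (adjusted p of 0.175, 0.165 and 0.0698) or without a filter on low values (0.0572) at ZT8, and without 3 or 4 at ZT12 (0.105 and 0.284). On the values as deposited the calls at ZT8, ZT12 and ZT24 were lost (0.238, 0.691 and 0.117). Under NRF the livers at ZT24 were also 0.40 ± 0.13 (SE) higher on the log2 scale than those at ZT0 (adjusted p = 0.0244), a call that was lost when replicate 2, 3 or 4 was left out (adjusted p of 0.173, 0.0878 and 0.0847) or with a length correction (0.0648).

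Slco1a4 (chromosome 6, 141805440 to 141856199, minus strand), which encodes OATP1A4, had its largest difference at the ends of the cycle. At ZT0 the livers had 283, 263, 216 and 238 scaled counts under DRF and 95.4, 121, 138 and 113 under NRF. The groups did not overlap, and DRF was 2.14-fold higher in the means, or 1.09 ± 0.20 on the log2 scale (adjusted p = 2.51e-05). At ZT4 the difference was 0.53 ± 0.20 with overlap (adjusted p = 0.0328), and from ZT8 to ZT20 none was called. The ZT4 call was lost without replicate 1, 3 or 4 (0.107, 0.148 and 0.0686) or without a filter on low values (0.0516). Its daily mean was higher under DRF by 0.29 ± 0.08 (adjusted p = 0.00665), which failed without replicate 1 (0.23, adjusted p = 0.0847). The DRF rhythm itself (adjusted p = 0.0147) was lost without replicate 2, 3 or 4 (0.208, 0.0631 and 0.0729) and without the ZT24 libraries (0.0511).

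Slco2b1 (chromosome 7, 99657804 to 99711340, minus strand), which encodes OATP2B1, had the shallowest NRF profile of the 10, with an amplitude of 0.08 ± 0.04 on the log2 scale. Under DRF the lowest mean was 155 ± 12.5 at ZT12 and the highest 203 ± 18.6 at ZT24, without overlap. At ZT16 the livers had 208, 186, 195 and 192 scaled counts under DRF and 133, 152, 148 and 163 under NRF, so that every DRF liver was higher (0.39 ± 0.09, adjusted p = 0.000569). Calls at ZT0, ZT4, ZT12 and ZT24 were each lost when 1 or more replicates were left out, with adjusted p of 0.0521 to 0.138, and those at ZT12, ZT16 and ZT24 were lost on the values as deposited (0.354, 0.0723 and 0.209). The daily mean was higher by 0.12 ± 0.03 (adjusted p = 0.00916), a call lost without replicate 1 (adjusted p = 0.165). Of its exon bases, 9.21% also lie in exons of opposite-strand genes.

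Slco1a1 (chromosome 6, 141907282 to 141946962, minus strand), which encodes OATP1A1 and is known to be more abundant in male than in female mouse liver, had no called rhythm and a lower level under DRF. At ZT0 the DRF livers had 6.14, 11.1, 9.65 and 19.9 scaled counts and the NRF livers 210.3, 27.7, 61.2 and 42.4. At ZT24 the DRF livers had 10.1, 15.1, 16.1 and 17.6, and the NRF livers 56.3, 91.2, 127 and 61.6. At ZT16 the DRF livers had 11.5, 9.24, 14.6 and 12.2 and the NRF livers 50.8, 44.7, 124 and 51.8. At these times every DRF liver was below every NRF liver, as was also so at ZT8 and ZT12. At ZT4 the groups overlapped, with means of 21.5 ± 14.6 under DRF and 57.3 ± 31.0 under NRF. At ZT20 they overlapped as well, with 68.2, 35.8, 26.1 and 37.0 under DRF and 82.4, 32.8, 84.8 and 28.8 under NRF.

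The daily mean of Slco1a1 fell by 1.75 ± 0.20 (SE) on the log2 scale, 3.37-fold, under DRF (limma, adjusted p = 1.28e-08), and 4 of 13606 genes had a more negative difference. A lower daily mean under DRF was called for 5.21% of all genes tested and a higher one for 10.4%. At single times Slco1a1 was called lower at 6 of 7, with differences from -1.40 ± 0.51 at ZT4 to -2.43 ± 0.51 at ZT0, and at ZT20 the difference was -0.36 ± 0.51 (adjusted p = 0.681). The ZT4 call was lost without replicate 2, 3 or 4 (adjusted p of 0.0591, 0.188 and 0.245), without a filter on low values (0.0506) and on the values as deposited (0.0532), and the ZT12 call without replicate 4 (0.0716). Livers of 1 group differed widely, as at DRF ZT8, where the values were 4.35, 42.3, 18.7 and 28.5. Of its 75-base words, 1.08% occur in other genes, Slco1a4, Slco1a5 and Slco1a6 among them.

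**Figure D2:**
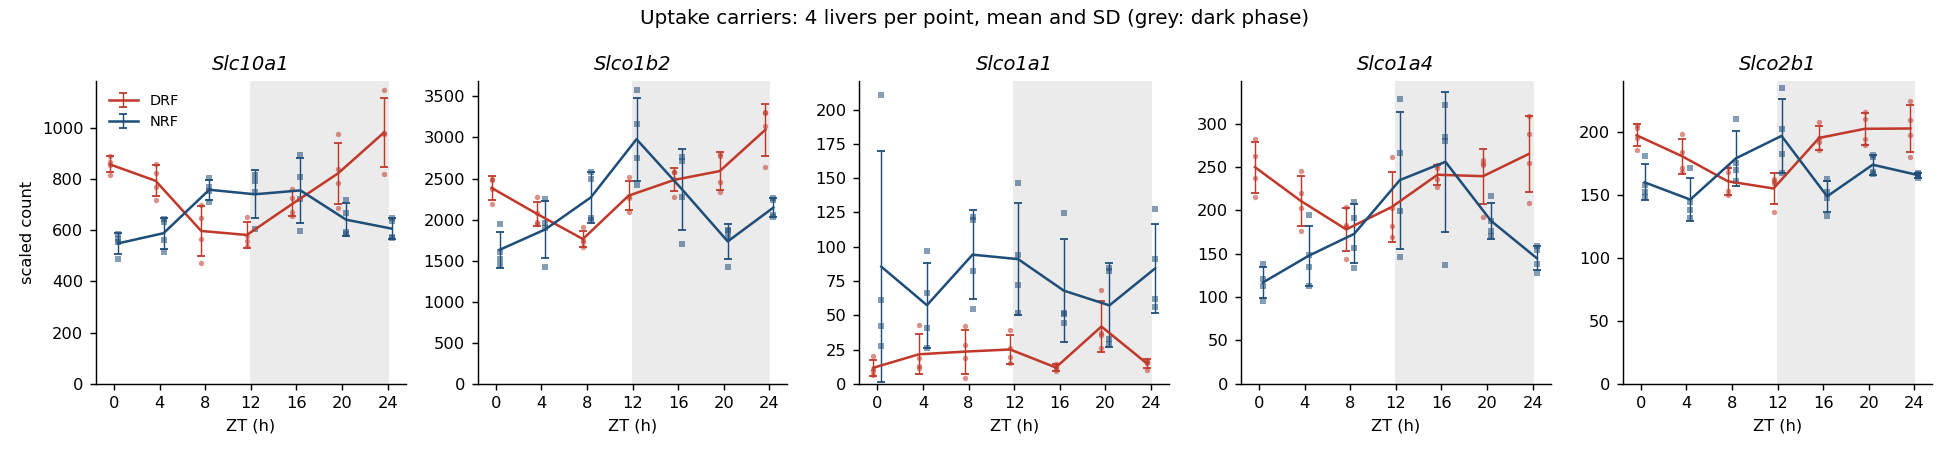
Scaled counts of the 5 uptake carriers (y axis, from 0) against ZT in hours, with each of 4 livers per group as a point and group means with SD joined by lines, for DRF (red) and NRF (blue); ZT12 to ZT24, the dark phase, is grey. The lines of Slc10a1, Slco1b2 and Slco1a4 cross in the course of the day, while the DRF means of Slco1a1 stay below the NRF means at all 7 times.

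Abcb11, the bile salt export pump, peaked at other hours than the rest of the rhythmic transporters under each regimen. Under DRF the livers at ZT4 had 347, 388, 379.7 and 442 scaled counts and those at ZT16 had 813, 852, 951 and 1032, a 2.34-fold rise without overlap. Under NRF the order was turned round, with 863, 876, 698 and 649 at ZT4 and 439, 449, 370.0 and 452 at ZT16. At each of the 7 times the DRF and NRF livers did not overlap. Abcb11 was lower under DRF at ZT0, ZT4, ZT8 and ZT24, most at ZT4 (-0.98 ± 0.10 on the log2 scale, adjusted p = 1.02e-10), and higher at ZT12, ZT16 and ZT20, most at ZT16 (1.09 ± 0.10, adjusted p = 1.73e-11). The calls at ZT0 and ZT24 were lost on the values as deposited (0.0598 and 0.0544). The peaks at ZT16.6 ± 0.257 and ZT2.78 ± 0.376 were 10.2 ± 0.456 h apart (adjusted p = 2.99e-19), and its daily mean differed by 0.02 ± 0.04 (adjusted p = 0.817). Over the 14 group means its profile correlated at -0.53 to 0.13 with those of the other 9 transporters, a description of groups that share their libraries.

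The uptake carrier and the export pump were also set against each other within single livers. The ratio of Abcb11 per kilobase to Slc10a1 per kilobase was 0.180, 0.215, 0.226 and 0.220 in the DRF livers at ZT4 and 0.457, 0.543, 0.621 and 0.606 at ZT16. Under NRF the ratio was 0.584, 0.580, 0.532 and 0.538 at ZT4 and 0.315, 0.237, 0.177 and 0.267 at ZT16. The ratio was thus low at ZT4 in day-fed livers and high there in night-fed livers, with no overlap between the regimens at ZT4 or at ZT16. At ZT0, ZT12 and ZT24 the regimens did not overlap either. They did at ZT8 (0.313 to 0.408 under DRF, 0.366 to 0.388 under NRF) and at ZT20 (0.361 to 0.496 and 0.364 to 0.430).

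Abcb4 (chromosome 5, 8893717 to 8959231, plus strand), the phosphatidylcholine floppase, had the largest distance between peaks of the 8 on the scale of scaled counts, ZT22.1 ± 0.499 under DRF and ZT9.97 ± 0.492 under NRF, 11.9 ± 0.701 h apart (adjusted p = 7.91e-14). At ZT20 the livers had 366, 514, 363 and 420.2 scaled counts under DRF and 224, 236, 269 and 269.6 under NRF. They did not overlap, and DRF was 1.66-fold higher. At ZT12 the livers had 271, 286, 279 and 254 under DRF and 376, 356, 349 and 338 under NRF, each DRF liver below each NRF liver. The amplitudes were 0.30 ± 0.04 under both regimens. Its daily mean was higher by 0.11 ± 0.04 at the edge of the threshold (adjusted p = 0.0494) and was not called without NRF ZT16 replicate 3 (0.0669), with the replicate number as a block (0.0580), without a filter on low values (0.0690), with median-of-ratios scaling (0.0525), without a variance trend (0.0515) or without replicate 1, 2 or 4 (0.114, 0.152 and 0.230). The call at ZT8 was lost without replicate 2 or 4 (0.104 and 0.0702), and that at ZT12 on the values as deposited (0.255). Of its 75-base words, 1.30% occur in other genes, among them Abcb1a and Abcb1b.

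Abcc2 (chromosome 19, 43782192 to 43840740, plus strand), the conjugate exporter MRP2, was highest under NRF at ZT12. The NRF livers at ZT12 had 586, 663, 823 and 777 scaled counts, against 472, 474, 399 and 474 at ZT16 and 394, 349, 357 and 371 at ZT0. Every liver at ZT12 was above every liver at the other 2 times. Under DRF the profile was flatter, between a mean of 406 ± 25.8 at ZT8 and 549.7 ± 38.0 at ZT0, without overlap. The amplitudes were 0.16 ± 0.04 under DRF and 0.35 ± 0.04 under NRF, with peaks 11.3 ± 1.22 h apart. The DRF rhythm (adjusted p = 0.00448) was lost without the ZT0 libraries (0.0811), and the calls between regimens at ZT8, ZT20 and ZT24 were lost on the values as deposited (0.160, 0.0726 and 0.1001). The ZT8 call was also lost without replicate 2 (0.0526), and the ZT20 call without replicate 2 or 4 (0.0545 and 0.0524).

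Abcg5 and Abcg8, the sterol heterodimer, had the widest NRF swings of the 10. Under NRF, Abcg5 was at 205, 280.3, 324 and 292 scaled counts at ZT12 and at 62.0, 57.2, 74.1 and 57.6 at ZT20, and Abcg8 was at 67.5, 97.4, 120.2 and 90.0 and at 11.4, 10.8, 16.2 and 11.03 at the same times. The means fell 4.39-fold for Abcg5 and 7.60-fold for Abcg8 within 8 h, without overlap. Under DRF both were highest at ZT0, where Abcg5 had 209, 217, 215 and 212 and Abcg8 had 71.7, 74.1, 72.3 and 72.5, and lowest at ZT16, with ratios of the means of 2.41 and 2.48. The fitted amplitude of Abcg5 was 0.46 ± 0.07 under DRF and 0.99 ± 0.07 under NRF, and that of Abcg8 was 0.45 ± 0.09 and 1.28 ± 0.10, so that 98.9% and 99.5% of genes tested had a lower NRF amplitude. The amplitude difference was not tested apart from the rhythm as a whole, which differed for each gene (adjusted p = 4.15e-16 and 1.79e-14). The peaks moved by 8.34 ± 0.687 h for Abcg5 and 8.37 ± 0.895 h for Abcg8.

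At equal ZT, Abcg8 was 3.96-fold higher under DRF at ZT20 (1.91 ± 0.18 on the log2 scale, adjusted p = 2.07e-11), and Abcg5 was 2.75-fold higher at ZT0 (1.45 ± 0.14, adjusted p = 3.44e-11). At ZT12 they were lower under DRF, by -1.13 ± 0.18 and -1.02 ± 0.14. Their profiles over the 14 group means were the most alike of all pairs of the 10 transporters (r = 0.93), across groups that share libraries. The pair did not keep a fixed ratio. Abcg8 per kilobase over Abcg5 per kilobase lay between 0.178 and 0.294 in the 28 DRF livers, and under NRF fell from 0.279, 0.310, 0.2997 and 0.305 at ZT8 to 0.160, 0.148, 0.155 and 0.167 at ZT16 and 0.133, 0.136, 0.158 and 0.138 at ZT20, below every liver of every other group. The genes overlap in the annotation, with 3.02% of Abcg5 and 2.19% of Abcg8 exon bases on opposite strands of each other.

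**Figure D3:**
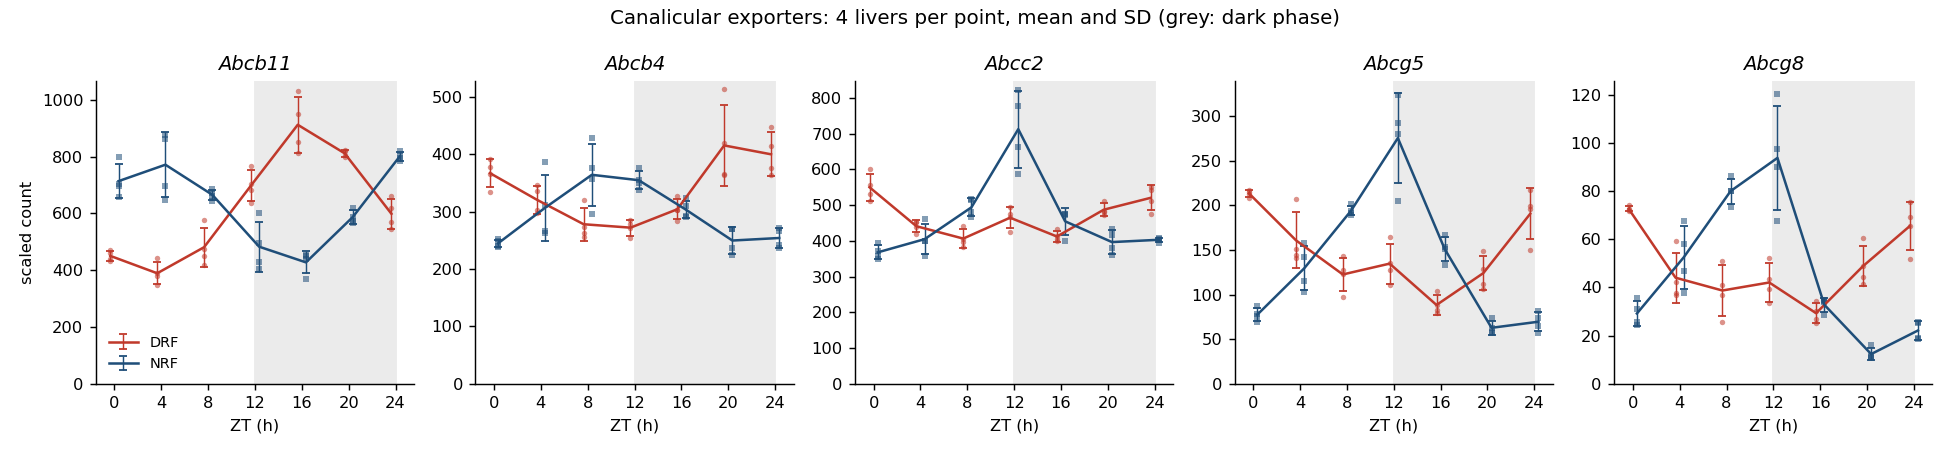
Scaled counts of the 5 canalicular exporters (y axis, from 0) against ZT in hours, drawn as for the uptake carriers, with 4 livers per group. The highest mean of Abcb11 is at ZT16 for DRF and ZT24 for NRF, and the NRF lines of Abcg5 and Abcg8 drop to means of 62.7 and 12.3 at ZT20.

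The next question is how the regimens differ at each time. Over the 7 times all 10 transporters differed (F test in limma), against 63.7% of all genes. Of 70 comparisons of 1 transporter at 1 time, 53 were called, 29 higher and 24 lower under DRF, against 25.6% of all such comparisons over all genes. In 47 of the 70 the groups did not overlap, against 26.0% over all genes. At ZT0, 8 of the 10 were higher under DRF (13.5% of all genes) and 2, Abcb11 and Slco1a1, lower (13.0%). The split was the same at ZT24, with 8 higher (12.1%) and the same 2 lower (11.9%). At ZT8, 8 were lower (11.8%) and none higher (10.2%), the exceptions being Slco1a4 and Slco2b1. At ZT12, 8 were lower (13.6%) and Abcb11 alone was higher (12.2%). At ZT20, 7 were higher (13.9%) and none lower (9.44%). At ZT4 and ZT16 the calls were mixed, with 3 higher and 2 lower (18.7% and 13.7%) and 2 higher and 2 lower (15.7% and 9.84%).

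Since one regimen fed the mice by day and the other by night, DRF livers were also compared with NRF livers taken 12 h away, with the light and dark phases exchanged and with ZT0 and ZT24 averaged. Of 60 such comparisons, 12 were called higher and 12 lower under DRF, against 11.4% and 8.64% over all genes, and in 19 the groups did not overlap, against 19.3% over all genes. For DRF ZT0, 1 of the 10 was higher (4.67% of all genes) and 3 were lower (5.56%). For DRF ZT4 the counts were 1 higher (15.2%) and 1 lower (9.08%), and for DRF ZT8 they were 2 higher (12.1%) and 2 lower (9.32%). For DRF ZT12, 4 were higher (4.96%) and 1 was lower (3.57%). For DRF ZT16, 3 were higher (16.9%) and 3 lower (11.3%), and for DRF ZT20, 1 was higher (14.3%) and 2 lower (13.0%). Over the 6 pairs jointly, 9 of the 10 differed, against 62.3% of all genes, and Abcb4 did not pass (adjusted p = 0.188), with single differences of at most 0.19 on the log2 scale, although it did pass on the values as deposited (0.000168). The mean absolute log2 difference was smaller in the 12-h comparison than at equal ZT for 8 of the 10, against 54.9% of all genes. It went from 0.68 to 0.20 for Abcb11, from 0.37 to 0.15 for Slc10a1 and from 0.36 to 0.11 for Abcb4. The exceptions were Slco1a4, at 0.35 and 0.39, and Slco1a1, at 1.75 in each. Every Slco1a1 difference was negative, so its 2 means equal the size of its daily mean difference by arithmetic and could not differ.

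Slco1a1, Abcg5 and Abcg8 had the most calls in the 12-h comparison, with 5, 5 and 4 of 6 pairs. Slco1a1 was lower under DRF in 5 of 6 pairs, by up to -2.66 for DRF ZT0 against NRF ZT12 (adjusted p = 5.42e-05). Its calls for DRF ZT8 and DRF ZT12 (adjusted p of 0.0398 and 0.0229) came with overlapping groups. Abcg8 was higher for DRF ZT8 against NRF ZT20, by 1.55 (adjusted p = 2.04e-07), and lower for DRF ZT16 against NRF ZT4, by -0.80 (adjusted p = 0.000718). The Abcg5 differences ran from -0.65 for DRF ZT20 against NRF ZT8 to 0.95 for DRF ZT8 against NRF ZT20. Under the alternatives only the joint test was compared, so the stability of single pairs was not examined. Without replicate 4 the joint test called 6 of the 10, with Slc10a1, Slco1b2 and Abcb11 lost (adjusted p of 0.162, 0.121 and 0.0704), and Slc10a1 was also lost without replicate 2 (0.0724).

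**Figure D4:**
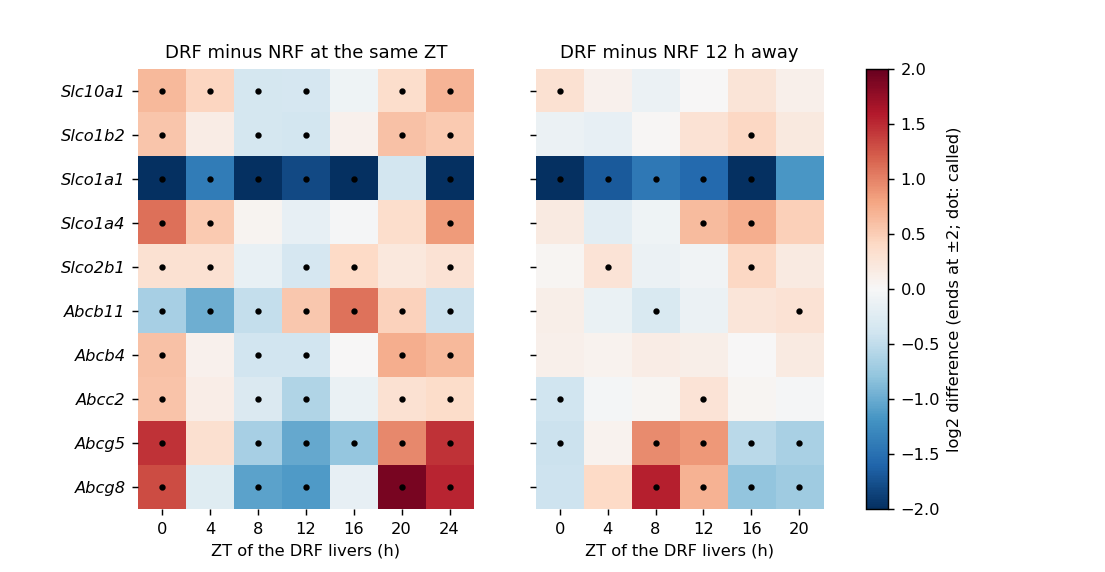
Log2 difference, DRF minus NRF, of each transporter (rows) at the same ZT (left, 7 times) and against NRF livers 12 h away (right, 6 pairs), by ZT of the DRF livers; colours end at 2 in each direction and dots mark calls. The left panel holds 53 dots and the right 24, and the Slco1a1 row is blue in both.

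The daily mean, weighted so that ZT0 and ZT24 count as 1 time, was called for 4 of the 10, against 15.7% of all genes, Slco1a1 lower and Slco1a4, Slco2b1 and Abcb4 higher under DRF. For Slc10a1 the difference was 0.11 ± 0.04 (adjusted p = 0.0821), called without replicate 2 (0.0496) and without NRF ZT16 replicate 3 (0.0446). The other 5 had differences of -0.02 to 0.12. The median over the 10 was 0.11, against 0.01 over all genes. Between ZT0 and ZT24, livers 1 cycle apart, Abcb11 alone was called under DRF (0.41 ± 0.10 higher at ZT24, adjusted p = 0.00969, against 6.32% of all genes, 2.87% higher and 3.45% lower), a call lost without replicate 2, 3 or 4 (0.0709, 0.0633 and 0.0732), and Slco1b2 alone under NRF, higher at ZT24, against 13.9% of all genes, 4.71% higher and 9.15% lower. The difference of these differences between the regimens was called for none of the 10 in limma, with unadjusted p-values of 0.0569 to 0.949.

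A list of 50 other genes of bile acid and sterol handling was examined, of which 44 were tested. A rhythm was called for 34 under DRF (54.4% of all genes) and 34 under NRF (60.8%), 26 under both (38.3%), and the rhythm differed for 34 (56.9%). Of the 26, 12 had peaks at least 8 h apart (50.8% of all genes rhythmic under both) and 5 at most 4 h apart (24.1%). The daily mean was higher under DRF for 13 (10.4% of all genes) and lower for 8 (5.21%). Of 11 regulators the rhythm differed for 10, with peaks at least 8 h apart for 5 of the 7 rhythmic under both, and of 5 genes of bile acid synthesis and conjugation it differed for 4, with none of the 2 rhythmic under both that far apart, where the shares over all genes were 56.9% and 50.8%. The lists were not tested against each other.

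Among these, Nr1h4, which encodes the bile acid receptor FXR, peaked at ZT22.1 ± 0.834 under DRF and ZT13.8 ± 1.13 under NRF, and its daily mean difference was -0.00 ± 0.04 (adjusted p = 0.979). Nr0b2, which encodes SHP and like Abcb11 is a known FXR target, was rhythmic under NRF only, from 16.7 ± 3.55 scaled counts at ZT4 to 2.90 ± 0.891 at ZT16, and its difference in rhythm was not called (adjusted p = 0.0756). Cyp7a1, the rate-limiting enzyme of bile acid synthesis, rose under NRF from 36.5 ± 12.9 at ZT4 to 249 ± 59.98 at ZT16 and had no called rhythm under DRF (adjusted p = 0.285), and the rhythms differed (5.22e-05). Slc9a3r1, which encodes the scaffold NHERF1, had the smallest p of the list for a difference in rhythm, with 521 ± 9.34 at ZT4 and 256 ± 8.97 at ZT20 under DRF and 226 ± 25.3 at ZT4 and 446 ± 56.8 at ZT16 under NRF.

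Slc10a2, the apical bile acid carrier of cholangiocytes and ileum, went from 5.81 ± 1.496 scaled counts at ZT0 to 23.2 ± 0.281 at ZT4 under DRF and from 4.30 ± 0.799 at ZT8 to 34.0 ± 4.13 at ZT20 under NRF. The summed cholangiocyte markers, of which Slc10a2 is 1, ranged from group means of 30.7 to 63.8. Soat2, which esterifies cholesterol, peaked 10.2 ± 1.18 h apart with amplitudes of 0.15 ± 0.04 under DRF and 0.79 ± 0.04 under NRF, and Abcb1a, Slc27a2 and Nr1i3, for the efflux pump MDR1A, a very long chain acyl-CoA synthetase and the receptor CAR, had peaks 9.44 to 10.05 h apart. By the daily mean, Abcc4, which exports bile acids back to blood, rose by 0.67 ± 0.08 on the log2 scale (adjusted p = 1.37e-08), 1.59-fold. Abcg2, Slc47a1 and Scarb1, a xenobiotic exporter, an organic cation exporter and the receptor for high-density lipoprotein, were higher by 0.19, 0.20 and 0.21.

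**Figure D5:**
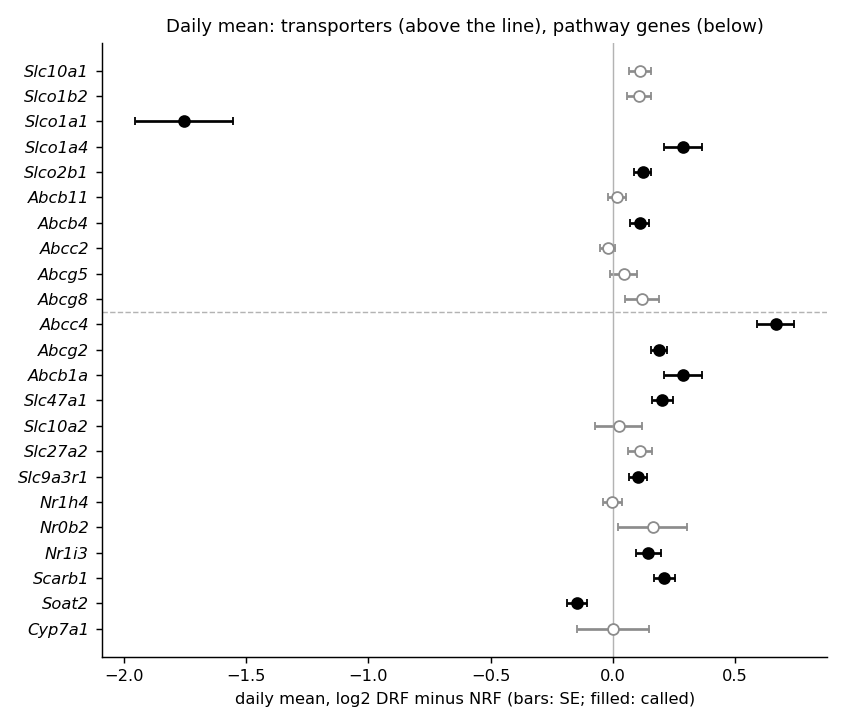
Daily mean difference, log2 DRF minus NRF (x axis, bars are SE), of the 10 transporters above the dashed line and of 13 genes of bile acid handling below it, with filled symbols where called. Slco1a1 at -1.75 and Abcc4 at 0.67 stand farthest from 0.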

How the data were processed

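Liver RNA of 56 mice was depleted of ribosomal RNA and sequenced from strand-specific paired-end libraries, per the labels, whose molecule field nevertheless reads polyA RNA. The submitters' processing notes name CASAVA 1.8, featureCounts 1.5.0-p3, mm10 and GRCm38.p6. The authors deposited values named TPM for genes and for transcripts and a table of circular RNAs, of which only the gene table was used, its 56 columns assigned by name. These values are not linear in abundance. Multiplied by the exon length of a gene (GENCODE vM21) they equal a constant times the natural log of 1 plus a whole number times a second constant, so the deposited unit was treated as a score. Scaled counts were obtained by inverting that relation in each library (tolerance of 0.05 of a whole number). In genes left out of the fit, 92.7% to 95.3% of values came out whole in the highest range examined, which ended at 100000. In the lower ranges 96.1% to 99.5% did. For abundant genes the steps are finer, and Slc10a1, Slco1b2, Abcb11, Abcb4 and Abcc2 were accepted at a wider tolerance of 0.2. At least 70% of their values up to 1000000 had to meet it, where chance gives 40%. A later recount over all 56 libraries, from rounded constants, found 27, 18, 33, 54 and 45 values within 0.2 for these genes in that order. Values of Slco1b2 above 1000000 were part of that recount. At this size rounding can move a value by more than the tolerance, and its part in the recount was not tested. The whole numbers sum to 295.9 to 666.7 times 1000000 per library and were not taken as reads, so the depth is unknown and no count model was used. For genes on chromosomes 17, 18 and 19 the annotated length failed for 22.8%, 56.5% and 49.9% of genes, where a fitted one was used if found, but all 10 transporters kept the annotated length.

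Tests were made in R 4.3.3 with limma 3.58.1 on log2(scaled count + 1), with a trend in the variance, for 13606 of 25265 rebuilt genes (mean scaled count of at least 1). Cosine curves of 24 h with a separate mean and curve per regimen gave rhythms, peaks and amplitudes, in place of the study's rhythm tools, and 14 group means gave the other contrasts. All samples entered each fit. Fold ratios are of mean scaled counts, except those of daily means, which are 2 to the power of the fitted log2 difference. Replicate numbers 1 to 4 recur in every group but belong to different animals and were not used to pair them. In the fit of 14 group means, p-values rest on the spread between animals of a group. In the cosine fit they rest on that spread together with the departure of the time means from a 24-h curve. Python 3.11.15 made the summaries and a Kendall rank test over 12 phase templates. The transporters and gene lists were chosen with earlier results of these data known. Named from the list of 50 genes were the 6 with the smallest p for the rhythm difference, the 4 with the smallest p for the daily mean, and Cyp7a1, Nr1h4 and Nr0b2.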

Additional observations from a re-analysis of the deposited data

Results flagged for a closer look

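In 4 of the 140 groups of 4 livers (10 transporters by 14 groups) 1 and the same library lay far from the other 3, NRF ZT16 replicate 3. It had 124 scaled counts of Slco1a1 against 44.7 to 51.8 in the other 3, 370.0 of Abcb11 against 439 to 452, 399 of Abcc2 against 472 to 474, and 28.5 of Abcg8 against 33.8 to 34.8. Further livers far from their group were DRF ZT20 replicate 1 for Slco1a4 (192 against 253 to 258), DRF ZT12 replicate 4 for Slco2b1 (137 against 159.8 to 163), DRF ZT4 replicate 2 for Abcg5 (207 against 141 to 150.5) and NRF ZT20 replicate 3 for Abcg8 (16.2 against 10.8 to 11.4). These 8 values, from 5 livers, passed the 95% critical value of Dixon's ratio of gap to range, which chance passes in about 1 in 20 groups. Without NRF ZT16 replicate 3 the rhythm calls were unchanged in number for the 10 genes under DRF (9), under NRF (8) and for the difference (9).

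The rhythm differed between the regimens, by the interaction of regimen and 24-h curve in limma, for 9 genes. The adjusted p was 7.97e-11 for Slc10a1, 1.27e-06 for Slco1b2, 1.39e-05 for Slco1a4 and 0.000145 for Slco2b1. It was 2.99e-19 for Abcb11, 7.91e-14 for Abcb4, 6.42e-10 for Abcc2, 4.15e-16 for Abcg5 and 1.79e-14 for Abcg8.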

How the results depend on the processing

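For the 10 transporters, the calls of a rhythm difference stayed at 9 under every alternative run for it. Over all genes, the daily mean was called for 2130, and for 1177 (without replicate 1) to 1944 when livers were left out, with 1 (without replicate 1) to 4 of the 10 transporters against 4. ZT24 against ZT0 was the least stable. Under DRF it was called for 860 genes, 2267 on the values as deposited and 127 (without replicate 4) to 1073 (without NRF ZT16 replicate 3) with livers left out, and for 1 transporter, 4 on the values as deposited, and 0 to 2 with livers left out. Under NRF it was called for 1886 genes, 6179 as deposited, 1197 with a length correction and 249 (without replicate 2) to 2110 with livers left out, and for 1 transporter, 7 as deposited, 0 with a length correction and 0 to 1 with a replicate left out. Livers of different groups with the same number did not deviate together (mean correlation of residuals 0.0042, and -0.0014 between different numbers). The replicate block left 3 of 4 daily mean calls, Abcb4 being lost, and changed no other call of the 10. A few uncalled differences changed sign. Slco1a1 at ZT20 ranged from -0.60 to 0.069 with a replicate left out, above 0 without replicate 3. The Abcb11 daily mean ranged from -0.0084 to 0.055, below 0 without replicate 3 or 4, and the Abcc2 daily mean was 0.0063 as deposited. Of 1472 comparisons with an alternative, 1386 kept their direction and call, 77 lost the call, 5 gained it and 4 changed sign. On the values as deposited 16 calls at single times were lost, of 7 transporters (adjusted p of 0.0532 to 0.691), and 3 calls were gained, the Slco2b1 rhythm under NRF (0.0277), the Abcg8 daily mean (0.0185) and the joint 12-h test of Abcb4 (0.000168). Peaks at least 8 h apart were then found for 2 of 9 transporters rhythmic under both, against 7 of 8. The causes were not tested. On the scale as deposited differences are compressed, and the read depth behind a value is unknown. The alternative without NRF ZT16 replicate 3 was chosen after seeing the data.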
